A study of Mus musculus with 8 samples.

Results

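The genes described here are 34 genes of glycolysis and of the response to low oxygen, followed across 8 RNA libraries of mouse rib chondrocytes. They were taken by symbol from a list whose rule names no measured value, although it was drawn up with earlier results of these data known, and all 34 were found among the 18501 genes of the deposited table. All 34 also passed the filter on low counts, which left 14359 genes to test. By role they are 3 transporters of glucose and lactate, 9 enzymes of upper glycolysis and 7 enzymes of lower glycolysis including lactate dehydrogenase. The others are 3 regulators of flux, 2 mitophagy receptors and 3 genes listed as oxygen-sensing hydroxylases and Ankrd37. A further 2 are collagen prolyl hydroxylases and 5 are other hypoxia response genes.

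Chondrocytes were released by overnight collagenase from the rib cartilage of CD1 mice aged 10 days, filtered and plated before TRIzol extraction. The CG mutants carry a mutation in the seed region of the 3p arm of miR-140, which cartilage makes in large amounts, and the CT mutants carry a C>T base change. The labels describe both as mice that overexpress the 5p arm. The CG line and the CT line each have wild types of their own, and each of the 4 groups has 2 libraries. By its Y-linked gene Ddx3y, each group held 1 male and 1 female library (counts of 2511 and 2 among CG wild types, 3669 and 10 among CT wild types, 3512 and 30 among CT mutants), except the CG mutants, both male at 2231 and 2360.

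Total counts ran from 26536868 to 28678641 per library. The chondrocyte genes Col2a1, Acan and Sox9 were present in every library, at least at 24139.5, 2765 and 590.3 CPM (counts over the library size after TMM scaling). CG mutant replicate 1 stood apart from the rest, at -47.0 on the second principal component against 8.36 for the other CG mutant library. Car9, Egln3 and Adm rest on it most and are given with and without it. The labels do not state the source of each library. Since 1 library of a pair was male and the other female in 3 of the 4 groups, the libraries of those groups came from different animals, whereas for the CG mutants Ddx3y cannot tell. The p-values set differences between group means against the spread of libraries within groups, pooled over the 4 groups of 2 libraries each.

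Cartilage has no blood vessels, and growing chondrocytes live at low oxygen and draw much of their energy from glycolysis. In oxygenated cells the prolyl hydroxylases encoded by the Egln genes mark the HIF alpha subunits for destruction through VHL. When oxygen falls, HIF alpha pairs with ARNT and binds promoters and enhancers at a short core motif, and among its known targets are glucose transporters, nearly every step of glycolysis, Pdk1, Bnip3, Car9 and the Egln genes themselves.

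Because members of this list are known as HIF targets and many of them differed together between the lines, their promoters were searched for the HIF core, spelled ACGTG or GCGTG on either strand (CACGT or CACGC on the other). ACGTG is also part of the E-box CACGTG, which other factors bind. The windows run from 250 bases before to 50 after each start site in RefSeq on GRCm38.p6. Windows were found for 31 members, and 28 of them (90.3%) held the core at least once, against 7441 of 11337 tested genes with a window (65.6%). By window the shares were 37 of 48 (77.1%) and 8649 of 14497 (59.7%). A gene with several windows had more bases searched, which the shares by window leave aside. Members were chosen as glycolysis and hypoxia response genes, so a share above that of all genes may follow from that choice. Whether the core has a part in the difference between the lines was not tested. The first 7 stretches printed here belong to genes that were higher in the CT line, and the last 3 to genes that did not pass between the lines. Each shows 29 bases around the core that lies closest before the start site, in 1 window per gene, with the core in capitals. Cores after the start site, such as those of Pkm and P4ha2, are not shown.
Slc16a3, chr11:120949038-120949066, plus strand: tgACGTGcgcgggggACGTGccgcgcgac
Bnip3, chr7:138909525-138909553, minus strand: ggctccgccgccGCGTGcgtcccgccccg
Pfkl, chr10:78009890-78009918, minus strand: atttgtagactgGCGTGcgctccgccttt
Pgk1, chrX:106186957-106186985, plus strand: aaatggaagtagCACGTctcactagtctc
Car9, chr4:43506996-43507024, plus strand: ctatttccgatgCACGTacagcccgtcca
Egln1, chr8:124949306-124949334, minus strand: gggccgtggtgtACGTGcagcgcgcgcgg
P4ha1, chr10:59323267-59323295, plus strand: gtgtgacagagcgCACGTagcgagggctg
Hk2, chr6:82774490-82774518, minus strand: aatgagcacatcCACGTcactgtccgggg
Pkm, chr9:59657140-59657168, plus strand: ctccgatccggtCACGTccgcgccgcagc
P4ha2, chr11:54100843-54100871, plus strand: catACGTGcagcGCGTGgcggctcgggcc
Slc16a3 and P4ha2 each carry the core in 2 places within 29 bases. All 5 members that had a window and passed in neither line comparison held the core (100%), as did 20 of 23 (87.0%) of those that passed in both. No core was found in the windows of Gpi1, Tpi1 and Eno2, which says only that these letters are absent from those bases.

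The first comparison set the wild types of the CT line against those of the CG line. A total of 27 of the 34 members were higher in the CT wild types and 0 were lower, by edgeR's quasi-likelihood test with an adjusted p under 0.05. Over all genes tested, 33.7% passed in either direction and 17.0% were higher in the CT line. The members' median log2 fold change was 0.84, against 0.00 over all genes. The mutants of the lines, which share no library with the wild types, gave 26 members higher and 0 lower, where 36.1% of all genes passed and 17.9% were higher. Their median was 0.82, against -0.01 over all genes. In both comparisons 25 members were higher, as were 1853 of the 14359 genes tested. In 26 of the 34 (76.5%) all 4 CT libraries stood above all 4 CG libraries, which held for 23.7% of all genes tested, and 23.1% had all 4 CT libraries below. Summed, the members took 0.693% to 0.773% of all counts in the CG libraries and 1.24% to 1.35% in the CT libraries.

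**Figure D1:**
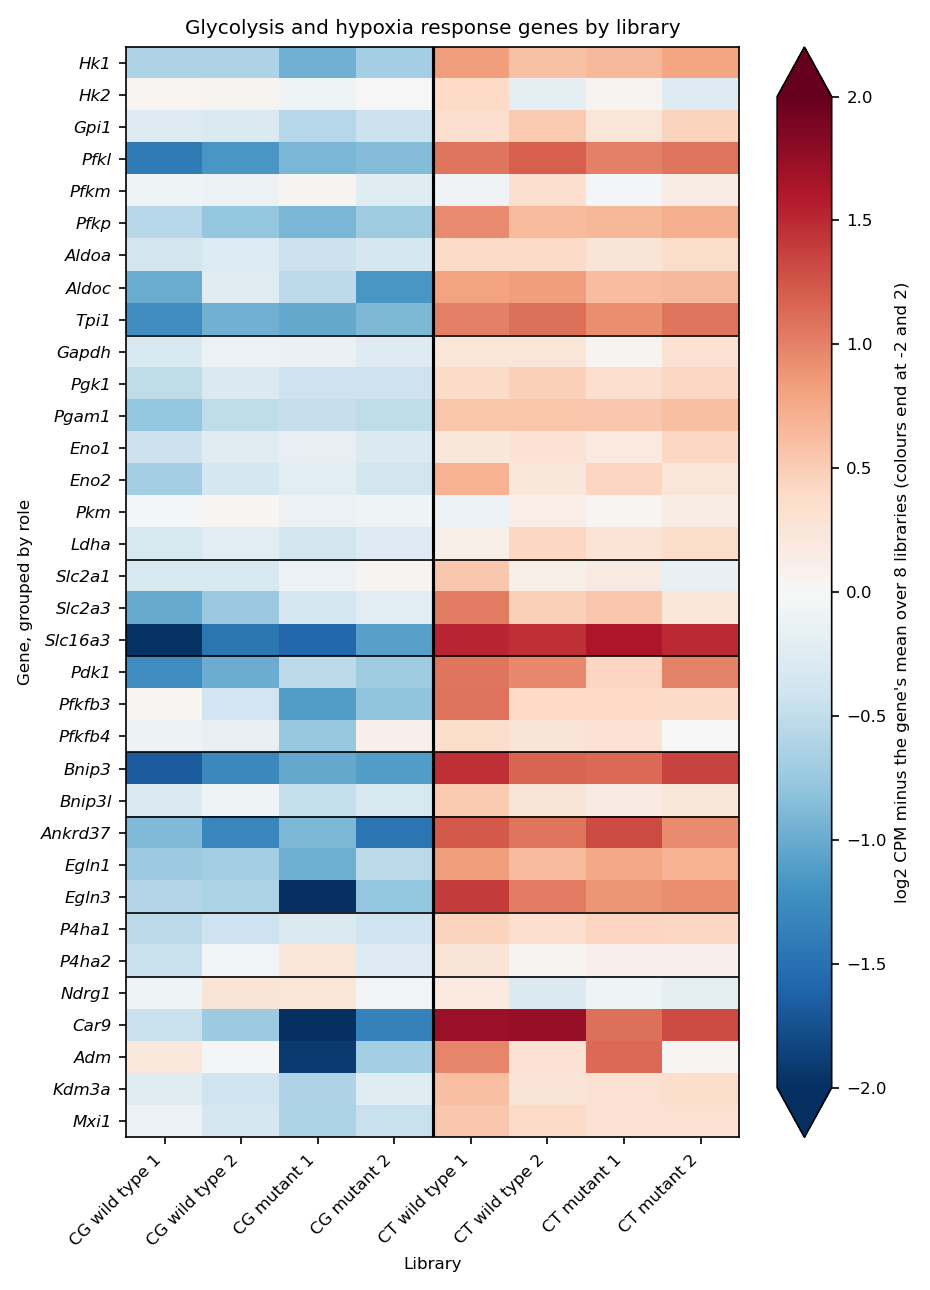
Level of each of the 34 genes in each of the 8 libraries, as log2 CPM minus the gene's mean over the 8 libraries, with genes in rows grouped by role and libraries in columns. Most rows are blue in the 4 CG libraries and red in the 4 CT libraries, while Hk2, Pkm, Pfkm and Ndrg1 are pale throughout, and Car9, Egln3 and Adm are darkest in CG mutant replicate 1.

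The higher level in the CT line was found in all role groups, in different measure. Among wild types 3 of 3 transporters, 7 of 9 upper glycolysis enzymes, 6 of 7 lower glycolysis enzymes and 2 of 3 flux regulators were higher. So were 2 of 2 mitophagy receptors and 3 of 3 genes listed as oxygen-sensing hydroxylases and Ankrd37. Of collagen prolyl hydroxylases 1 of 2 was higher, and of other hypoxia genes 3 of 5. Median log2 fold changes were 1.34 for upper and 0.60 for lower glycolysis. In bulk RNA, a difference in the share of cells that express a gene and a difference in RNA per cell cannot be told apart. Line cannot be told apart from anything else that differed between the lines when they were bred, digested or sequenced.

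Among transporters, Slc16a3 encodes MCT4, the monocarboxylate carrier that exports lactate from glycolytic cells. It stood at 20.3 and 29 CPM in CG wild types, 26.8 and 37.7 in CG mutants, 229 and 219 in wild types of the CT line, and 244 and 224 in its mutants. No CG library came near any CT library. The log2 fold change between lines was 3.18 ± 0.21 (SE) in wild types and 2.86 ± 0.20 in mutants, with edgeR adjusted p of 0.000139 and 0.000205, the largest among the members in wild types. Slc2a1, which encodes the main glucose carrier GLUT1, was at 513 and 515 CPM in CG wild types, 589.7 and 659 in CG mutants, 921 and 691 in wild types of the CT line, and 718 and 577 in its mutants. Here the CT mutants overlapped the CG mutants, and the log2 fold change of 0.65 ± 0.16 in wild types (edgeR adjusted p 0.0184) stood beside 0.05 ± 0.16 in mutants (0.823). Slc2a3, the gene of the high-affinity carrier GLUT3, was low in every library, with 3.66 and 4.39 CPM in CG wild types, 5.82 and 6.30 in CG mutants, 15.0 and 10.3 in wild types of the CT line, and 10.7 and 8.70 in its mutants. Its log2 fold change was 1.65 ± 0.23 in wild types and 0.68 ± 0.22 in mutants, with edgeR adjusted p of 0.00171 and 0.0435. The wild-type call of Slc2a1 was lost on leaving out replicate 1 or 2 of the CG wild types (edgeR adjusted p 0.0881 and 0.0895) or replicate 1 of the CT ones (0.0908). The mutant call of Slc2a3 was lost without any 1 library of the mutants or of the CG wild types (0.0625 to 0.213).

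The first committed steps of glycolysis were unequal between isozymes. Hk1 and Hk2 encode hexokinases, which trap glucose in the cell as glucose 6-phosphate. Hk1 was at 62.1 and 62.5 CPM in CG wild types, 49.2 and 59.5 in CG mutants, 171 and 144 in wild types of the CT line, and 149 and 166 in its mutants. That is a log2 fold change of 1.34 ± 0.13 in wild types and 1.54 ± 0.13 in mutants (edgeR adjusted p 0.000454 and 0.000278), with no overlap of the lines. Hk2, the hexokinase best known as a HIF target, gave 173 and 176 CPM in CG wild types, 159 and 169 in CG mutants, 223 and 147 in wild types of the CT line, and 176 and 140.4 in its mutants. Its CT values spanned its CG values, and neither 0.09 ± 0.19 in wild types nor -0.05 ± 0.19 in mutants passed (edgeR adjusted p 0.741 and 0.85).

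Phosphofructokinase, which commits sugar to glycolysis, has liver (Pfkl), muscle (Pfkm) and platelet (Pfkp) forms. Pfkl was at 53.1 and 63.3 CPM in CG wild types, 75.3 and 77.5 in CG mutants, 296 and 324 in wild types of the CT line, and 283 and 296 in its mutants. It had the smallest p of any member in both comparisons, with log2 fold changes of 2.41 ± 0.11 and 1.92 ± 0.11 and edgeR adjusted p of 8.92e-05 and 0.000104. Pfkp was at 72.2 and 62.8 CPM in CG wild types, 56.8 and 66.1 in CG mutants, 208 and 167 in wild types of the CT line, and 169.8 and 178 in its mutants. Its log2 fold changes were 1.47 ± 0.14 and 1.5 ± 0.14 (edgeR adjusted p 0.000403 and 0.000335). Pfkm, between 10.6 and 13.2 CPM in CG libraries and 12.1 and 15.9 in CT libraries, did not pass in either comparison.

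Further along, Gpi1 encodes the isomerase that makes fructose 6-phosphate. Gpi1 stood at 342 and 333 CPM in CG wild types, 275 and 305 in CG mutants, 518 and 585 in wild types of the CT line, and 484 and 557 in its mutants, a log2 fold change of 0.71 ± 0.11 in wild types and 0.84 ± 0.11 in mutants (edgeR adjusted p 0.00328 and 0.00136). Tpi1, the gene of triosephosphate isomerase, was at 97.8 and 119 CPM in CG wild types, 114 and 124 in CG mutants, 463 and 493 in wild types of the CT line, and 438 and 484 in its mutants. Among glycolysis enzymes in wild types it was second to Pfkl, with 2.14 ± 0.12 in wild types and 1.96 ± 0.12 in mutants (edgeR adjusted p 0.00011 and 0.000123). The aldolase gene Aldoa, at 572 to 642 CPM in CG and 919 to 1009 in CT libraries, and its scarce isozyme gene Aldoc, at 0.611 to 1.16 and 2.09 to 2.45, were also higher in both comparisons. The Aldoc call was lost in wild types without CG replicate 1, CT replicate 1 or CT replicate 2 (edgeR adjusted p 0.0541 to 0.114) and in mutants without CG replicate 2, CT replicate 1 or CT replicate 2 (0.0627 to 0.0663).

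In lower glycolysis the differences were smaller. Pgk1, the gene of phosphoglycerate kinase, was at 390.1 and 455 CPM in CG wild types, 417 and 418 in CG mutants, 723 and 768 in wild types of the CT line, and 701 and 738 in its mutants. Its log2 fold changes were 0.82 ± 0.11 and 0.79 ± 0.11 (edgeR adjusted p 0.00142 and 0.00138). Pgam1, the gene of phosphoglycerate mutase, was at 265 and 317 CPM in CG wild types, 327 and 318 in CG mutants, 667 and 660.4 in wild types of the CT line, and 657 and 688 in its mutants. It had the largest difference of the lower enzymes, at 1.19 ± 0.11 and 1.06 ± 0.11 (edgeR adjusted p 0.00039 and 0.000497). Ldha, the gene of the lactate dehydrogenase subunit that favours lactate, was at 516 and 555 CPM in CG wild types, 498 and 536 in CG mutants, 693 and 854 in wild types of the CT line, and 776 and 823 in its mutants. The lines did not overlap, yet the log2 fold changes were modest, at 0.53 ± 0.12 and 0.63 ± 0.12 (edgeR adjusted p 0.0139 and 0.00631), and the wild-type call was lost without CG replicate 1 (edgeR adjusted p 0.0927), CG replicate 2 (0.0602) or CT replicate 2 (0.0682) of the wild types.

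Of the rest of lower glycolysis, the enolase genes Eno1 (564 to 682 CPM in CG and 877 to 1014 in CT libraries) and Eno2 (7.68 to 10.6 and 14.3 to 19.9) passed in both comparisons. Gapdh, at 1887 to 2156 CPM in CG and 2428 to 2884 in CT libraries, passed in wild types with 0.45 ± 0.13 (edgeR adjusted p 0.0341) and not in mutants with 0.38 ± 0.13 (0.0575). The Gapdh call was lost without any 1 of the 4 wild types (edgeR adjusted p 0.0798 to 0.198), that of Eno1 without CG wild type replicate 1 (0.0644) or CT mutant replicate 2 (0.0747), and that of Eno2 without CG wild type replicate 1 (0.0607) or any 1 of the 4 mutants (0.0718 to 0.17). Pkm, the pyruvate kinase gene, ran from 945 to 1060.3 CPM in CG and from 949 to 1139.5 in CT libraries, and its log2 fold changes of 0.02 ± 0.12 and 0.19 ± 0.12 did not pass. Thus among the enzymes of the main path from glucose to lactate, Hk2, Pfkm and Pkm did not pass between the lines in either comparison.

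On the length-corrected scale of the deposited FPKM, Gapdh was the most abundant member in both wild-type groups, at 1479.9 ± 109 FPKM (SD, n = 2) in CG and 2219 ± 41.0 in CT. In CG wild types Pkm (422 ± 9.43) and Aldoa (421 ± 12) came next and did not differ beyond their spread, followed by Eno1 (343 ± 25.3) and Ldha (335 ± 10.7), which overlapped likewise. In CT wild types the order was Aldoa (745 ± 20.8), Eno1 (569 ± 32.7), Ldha (529.7 ± 91.9), Pkm (467 ± 70.3) and Pgk1 (451 ± 30.7). The last 4 have spreads that touch from neighbour to neighbour. Counts of Eno1 and of Eno1b, an enolase gene outside the members, were not whole. Eno1b stood at 189 ± 12.1 FPKM in CG and 322 ± 37.4 in CT wild types. The place of Eno1 may depend on how reads were divided, which was not tested. The scarcest members were Aldoc, at 0.340 ± 0.113 FPKM in CG and 0.980 ± 0.0424 in CT wild types, and Ankrd37 and Slc2a3 in CG wild types, at 0.740 ± 0.212 and 1.04 ± 0.106.

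**Figure D2:**
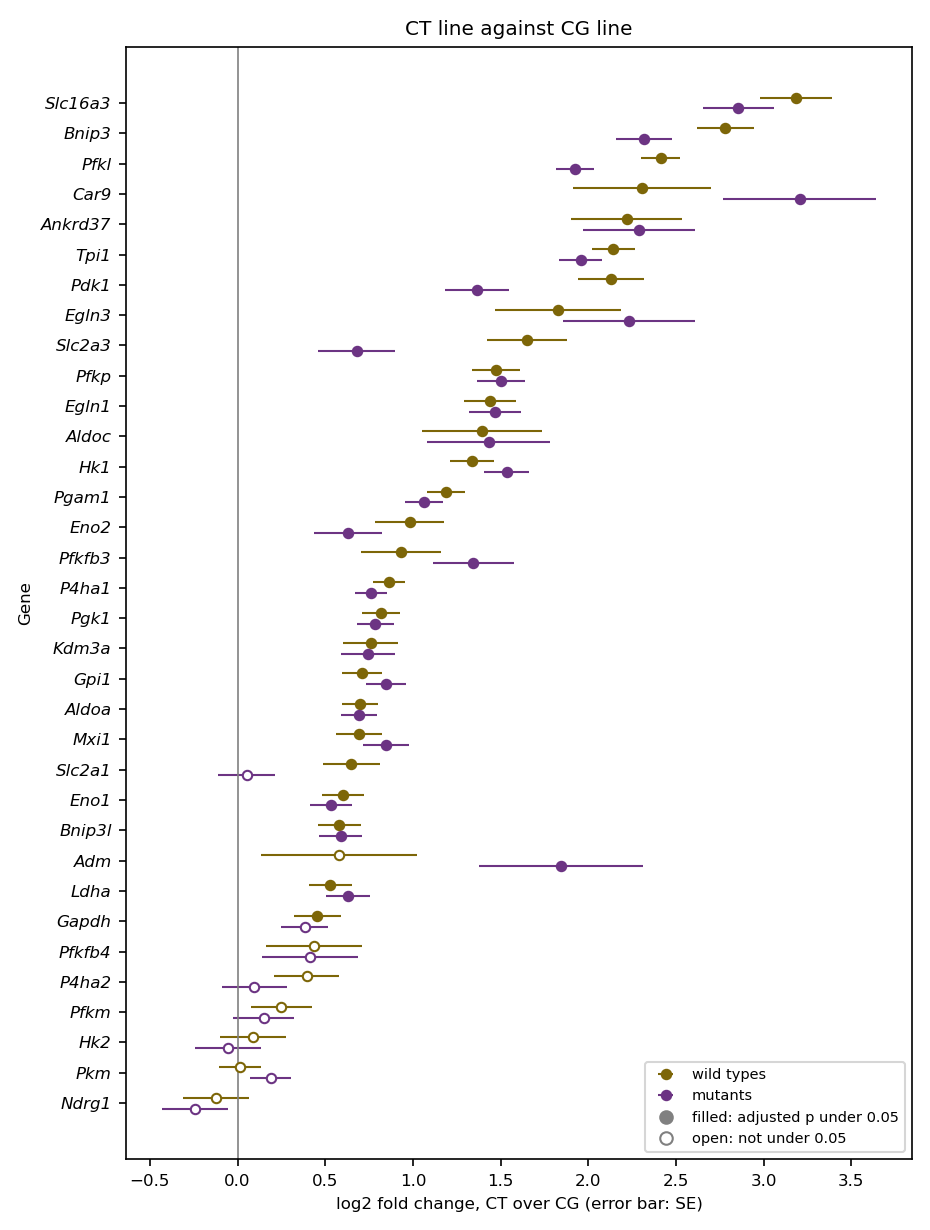
Log2 fold change of each of the 34 genes between the CT and the CG line, in wild types and in mutants, with its SE as error bar, filled where the edgeR adjusted p is under 0.05. Slc16a3 is at the top with 3.18 in wild types and 2.86 in mutants, Slc2a1 and Adm are each filled in 1 comparison only, and Hk2, Pkm and Ndrg1 lie around 0.

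Among the flux regulators, Pdk1 encodes a kinase that shuts pyruvate dehydrogenase and so keeps pyruvate out of the mitochondrion. Pdk1 was at 16.1 and 19.1 CPM in CG wild types, 26.1 and 23.2 in CG mutants, 79.9 and 74.1 in wild types of the CT line, and 51.4 and 75.7 in its mutants. The log2 fold change was 2.13 ± 0.19 in wild types and 1.36 ± 0.18 in mutants (edgeR adjusted p 0.000329 and 0.00129). Pfkfb3 makes fructose 2,6-bisphosphate, the strongest activator of phosphofructokinase, and was at 82.1 and 61.1 CPM in CG wild types, 36.6 and 45.5 in CG mutants, 168 and 105 in wild types of the CT line, and 105 and 104 in its mutants. It passed with 0.93 ± 0.23 in wild types (edgeR adjusted p 0.0173) and 1.34 ± 0.23 in mutants (0.00373), though CT wild type replicate 1 stood well above the other library of its group. The wild-type call was lost without that library (edgeR adjusted p 0.0784) or without CG wild type replicate 2 (0.11). Pfkfb4, a second gene of this kind, was at 2.95 to 5.34 CPM in CG and 5.01 to 6.31 in CT libraries and did not pass with all libraries. Without CG mutant replicate 2 it was higher in mutants, at 0.90 (edgeR adjusted p 0.0236).

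Bnip3 and Bnip3l encode receptors that mark mitochondria for removal by autophagy. Bnip3 was at 17.3 and 22.4 CPM in CG wild types, 27 and 25.2 in CG mutants, 150.3 and 122 in wild types of the CT line, and 120.4 and 140.1 in its mutants. With log2 fold changes of 2.78 ± 0.16 and 2.32 ± 0.16 (edgeR adjusted p 0.00011 and 0.000178), it was second to Slc16a3 among wild types. Its relative Bnip3l, at 74.7 and 86.2 CPM in CG wild types, 65.4 and 73.2 in CG mutants, 131 and 109 in wild types of the CT line, and 102 and 106 in its mutants, differed by only 0.58 ± 0.12 and 0.59 ± 0.12 (edgeR adjusted p 0.00923 and 0.00786), its wild-type call being lost without CG replicate 1 (0.0673). In the CG libraries Bnip3l had the higher level of the pair per length, and in the CT libraries Bnip3 did.

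The oxygen-sensing hydroxylase genes among the members, and Ankrd37 listed with them, were higher in the CT line in both comparisons. Egln1 encodes PHD2, the main hydroxylase of HIF alpha, and was at 76.4 and 79.1 CPM in CG wild types, 63.9 and 87.4 in CG mutants, 225 and 196 in wild types of the CT line, and 215 and 204 in its mutants. Its log2 fold changes were 1.44 ± 0.15 and 1.47 ± 0.15 (edgeR adjusted p 0.000589 and 0.000483). Egln3, the gene of the hypoxia-induced hydroxylase PHD3, was at 4.93 and 4.75 CPM in CG wild types, 1.54 and 4.31 in CG mutants, 19.5 and 14.9 in wild types of the CT line, and 13.6 and 14.1 in its mutants. Between lines that gave 1.83 ± 0.36 and 2.23 ± 0.38 (edgeR adjusted p 0.00753 and 0.00338), the wild-type call being lost without CG wild type replicate 2 at an edgeR adjusted p of 0.056. Ankrd37, an ankyrin repeat gene known as a HIF target, was at 0.534 to 0.797 CPM in CG and 2.84 to 3.63 in CT libraries, with log2 fold changes of 2.22 ± 0.32 and 2.29 ± 0.32.

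The collagen prolyl hydroxylases use oxygen to stabilise the collagen triple helix, and P4ha1 and P4ha2 encode their catalytic subunits. P4ha1 was at 187 and 203 CPM in CG wild types, 222 and 206 in CG mutants, 366 and 342 in wild types of the CT line, and 364 and 361 in its mutants. The log2 fold changes were 0.86 ± 0.09 and 0.76 ± 0.09 (edgeR adjusted p 0.000675 and 0.000942). P4ha2 ranged from 99.0 to 160.0 CPM in CG and from 141 to 162 in CT libraries and did not pass, at 0.39 ± 0.18 and 0.10 ± 0.18.

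Car9 encodes carbonic anhydrase IX, a surface enzyme that helps hypoxic cells handle acid. It was scarce, at 4.64 and 3.79 CPM in CG wild types, 0.623 and 2.48 in CG mutants, 20.7 and 21 in wild types of the CT line, and 13.5 and 15.6 in its mutants. The lines did not overlap, and the log2 fold changes were 2.31 ± 0.40 and 3.21 ± 0.44 (edgeR adjusted p 0.00433 and 0.0014). Kdm3a, a histone demethylase gene, and Mxi1, a MAX partner gene, passed in both comparisons. Mxi1 was at 15.5 and 13.4 CPM in CG wild types, 10.8 and 12.3 in CG mutants, 24.6 and 22.1 in wild types of the CT line, and 20.9 and 20.8 in its mutants, with 0.69 ± 0.13 and 0.85 ± 0.13 (edgeR adjusted p 0.00608 and 0.00235). Without CG wild type replicate 2 the wild-type calls of Kdm3a (edgeR adjusted p 0.0645) and Mxi1 (0.0524) were lost. Adm, the gene of the vasodilator peptide adrenomedullin, ranged from 4.86 to 21.2 CPM in CG and from 18.5 to 40.2 in CT libraries. Adm passed in mutants at 1.85 ± 0.47 (edgeR adjusted p 0.0178) and not in wild types at 0.58 ± 0.45, and its mutant call was lost without CG mutant replicate 1 (0.0633) or CT mutant replicate 1 (0.113). Ndrg1, at 231 to 296 CPM in CG and 201 to 283 in CT libraries, was the one member with a value below 0 in both comparisons, -0.12 ± 0.19 and -0.24 ± 0.19, and did not pass.

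**Figure D3:**
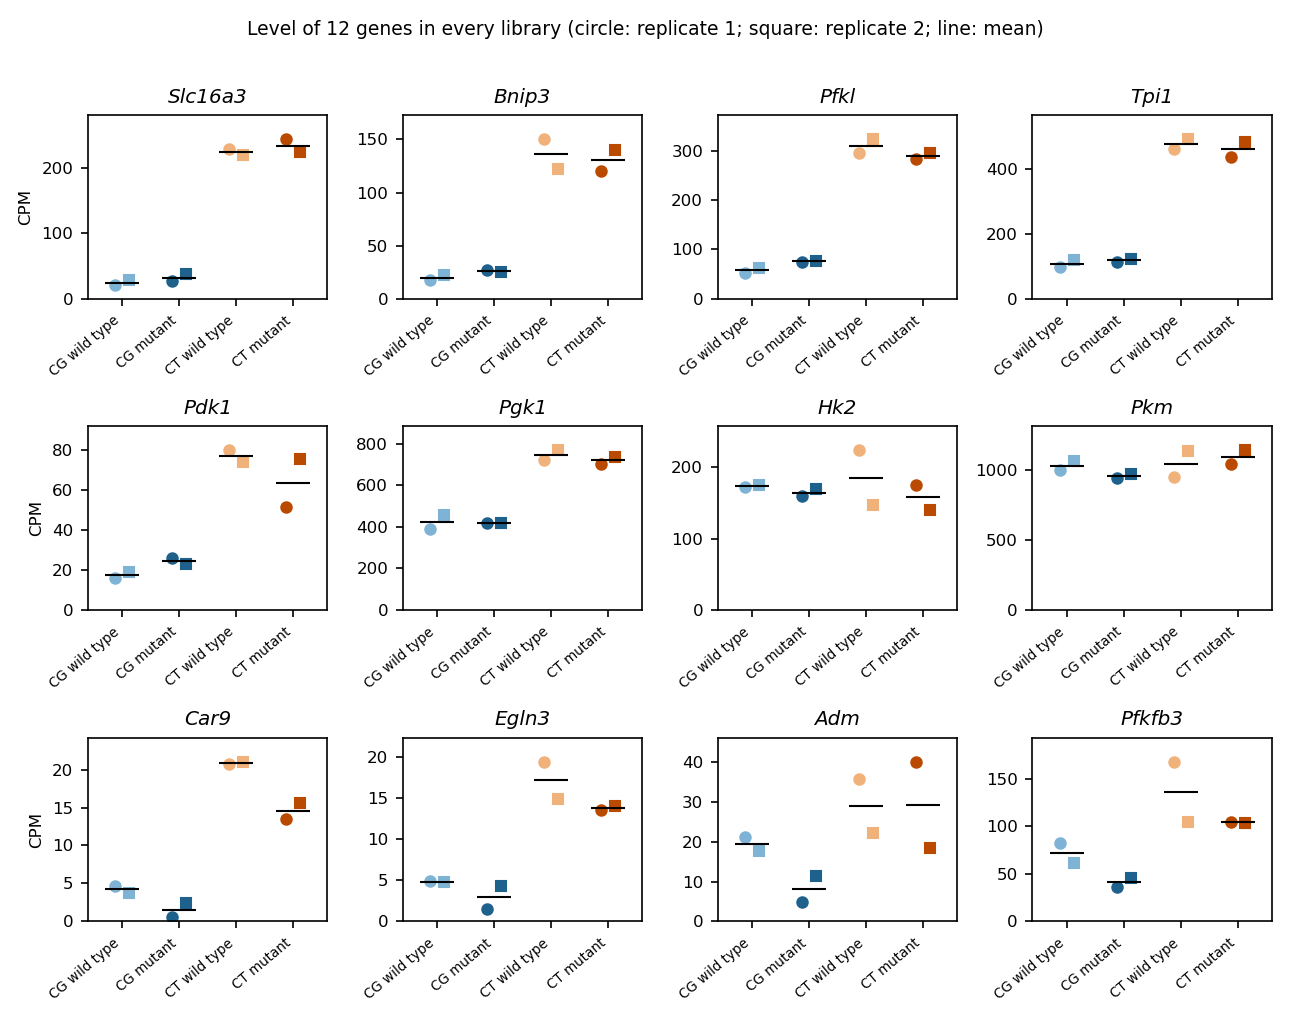
CPM of 12 genes in every library, on linear axes that start at 0, with circles for replicate 1, squares for replicate 2 and a line at the mean of the 2 libraries. Slc16a3, Bnip3, Pfkl, Tpi1, Pdk1, Pgk1, Car9, Egln3 and Pfkfb3 have every CT library above every CG library, whereas in Hk2, Pkm and Adm the lines overlap.

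The 15 members that passed in both comparisons whichever single library was left out were Hk1, Gpi1, Pfkl, Pfkp, Aldoa, Tpi1, Pgk1, Pgam1, Slc16a3, Pdk1, Bnip3, Ankrd37, Egln1, P4ha1 and Car9. In wild types 16 of the 27 calls held in every such fit, and in mutants 21 of the 26. Leaving out CG mutant replicate 1, the library that stood apart, left 23 members higher in mutants and 0 lower. The authors' deposited table of comparisons lists 27 of the 34 members, all 27 with a q-value under 0.05 between wild types and 24 between mutants. The 7 that it does not list are Hk2, Pfkm, Pkm, Pfkfb4, P4ha2, Ndrg1 and Adm, the same 7 that edgeR did not call between wild types. That table holds only part of the genes, and the sources used here do not say how they were chosen. Its count between wild types may follow from that choice and is no separate check. Over all genes, edgeR called 2436 higher and 2407 lower between wild types, and 2449 and 2382 with RLE in place of TMM factors. Limma on log2(FPKM + 1), which changes the unit and the test together, called 3248 and 1567. In mutants the split was 2564 to 2620 with edgeR and 4040 to 1504 with limma. Limma called 28 members higher in wild types and 27 in mutants, and 0 lower. Counts of 6 members (Gpi1, Pfkm, Pfkp, Gapdh, Eno1 and, in 1 library, Slc16a3) were not whole, as when reads are divided between near-identical copies in counting, so their levels are uncertain.

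Since several steps have isozyme genes with different behaviour, the share of 1 form in each family was computed from FPKM after the data were seen. Pfkl made up 45.2% to 56.3% of the phosphofructokinase FPKM in the 4 CG libraries and 68.1% to 71.8% in the 4 CT libraries. Hk1 made up 30.6% to 33.8% of the FPKM of Hk1 and Hk2 in the CG line and 52.1% to 62.7% in the CT line. Bnip3 moved from 30.4% to 43.8% of the pair with Bnip3l in CG to 67.9% to 71.4% in CT. In these 3 families every CT library lay above every CG library. So it was with the shares of P4ha1 with P4ha2 (57.0% ± 3.64 in CG and 65.6% ± 1.22 in CT, SD, n = 4), of Slc2a3 with Slc2a1 (0.573% ± 0.0684 and 0.982% ± 0.0413) and of Aldoc with Aldoa (0.0761% ± 0.0209 and 0.126% ± 0.00727). The shares of Eno2 with Eno1 (0.957% ± 0.0532 and 1.13% ± 0.231) and of Egln3 with Egln1 (6.12% ± 2.15 and 8.90% ± 1.10) overlapped between the lines. Eno1b was left out of the enolase pair. The direction of a share rests on which form of the family was shown. Because the families and the form shown were picked after their members had been seen to differ, the 8 shares are a description without a test.

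**Figure D4:**
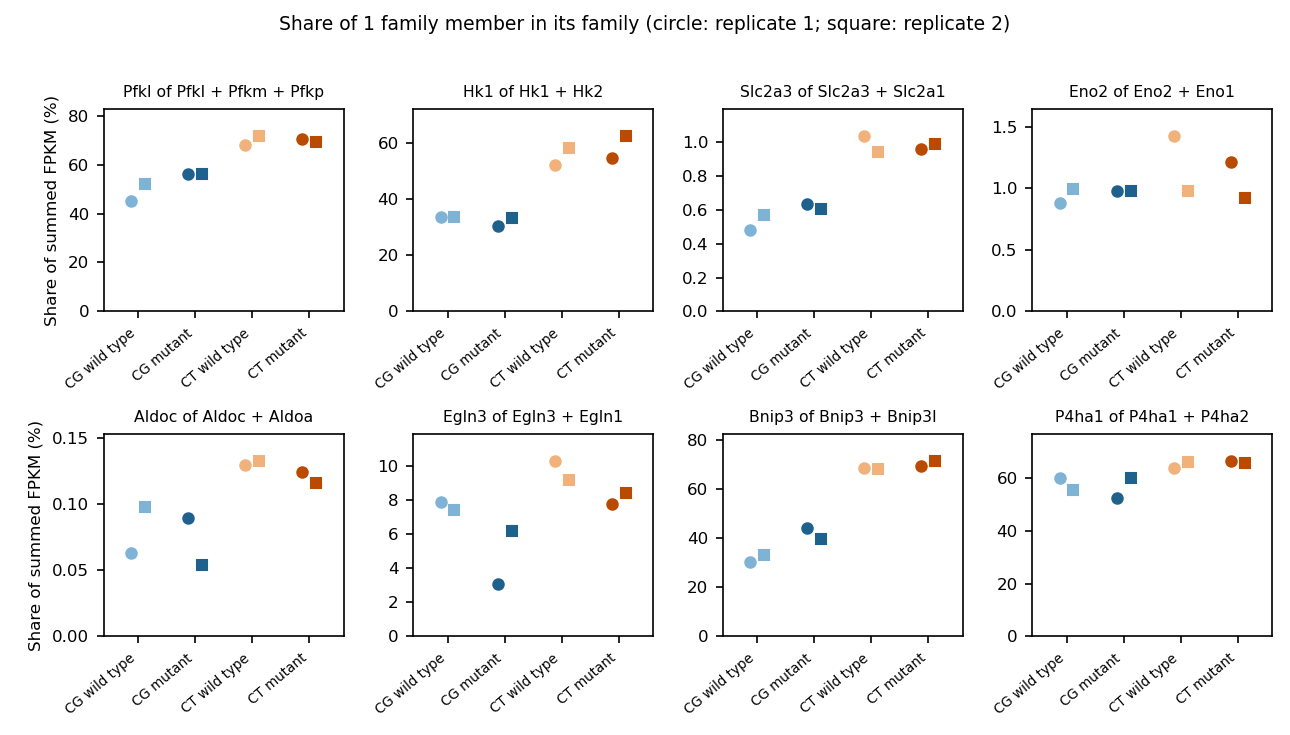
Share of 1 member in the summed FPKM of its family, in percent, for 8 families and each of the 8 libraries, with circles for replicate 1 and squares for replicate 2. The shares of Pfkl, Hk1, Bnip3 and P4ha1 lie higher in every CT library than in any CG library, while those of Eno2 and Egln3 overlap between the lines.

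The other genes of these pathways were read from lists of their own. Of 18 genes of the HIF machinery, 1 was higher and 4 were lower in CT wild types, with a median of -0.08. In mutants 1 was higher and 3 were lower. That is 27.8% and 22.2% of the list, below the 33.7% and 36.1% of all genes that passed in these comparisons. Hif1a itself, the gene of the HIF-1 alpha subunit, was at 688 ± 6.71 CPM (SD, n = 2) in CG and 579 ± 116 in CT wild types and did not pass (-0.25 ± 0.15, edgeR adjusted p 0.246); it was named after its values were seen. Os9, which encodes a lectin of the endoplasmic reticulum, was lower in the CT line at -0.83 ± 0.10 in wild types and -0.97 ± 0.10 in mutants. So were the ARNT paralogue gene Arnt2, at -2.16 ± 0.26 and -1.51 ± 0.25, and in wild types Epas1, the gene of HIF-2 alpha, at -0.86 ± 0.18 (edgeR adjusted p 0.00919). P4htm, a transmembrane prolyl hydroxylase gene, was higher in CT mutants, at 6.25 ± 0.0357 against 2.23 ± 0.0779 CPM.

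Of 39 tested hypoxia response genes outside the members, 14 were higher and 7 lower in CT wild types (median 0.15), and 15 and 9 in mutants. That is 53.8% and 61.5% of the list, beside 33.7% and 36.1% of all genes. The adenylate kinase gene Ak4 was at 283 ± 28.3 CPM in CT and 99.2 ± 9.91 in CG wild types, Zfp395 at 32.2 ± 3.38 and 7.08 ± 0.378, and the mitochondrial gene Higd1a at 104 ± 1.18 and 37.6 ± 2.66. Lox, the collagen cross-linking lysyl oxidase gene and a known hypoxia target, went the other way, with 1252 ± 5.55 CPM in CT and 3482 ± 161 in CG mutants. Of 33 further glycolysis and pyruvate genes 8 were higher and 6 lower in wild types (42.4% of the list), and 8 and 5 in mutants (39.4%). Bsg, whose product basigin escorts the lactate carriers to the membrane, was higher by 0.78 ± 0.09 in wild types and 0.68 ± 0.09 in mutants. Pdha1, a subunit gene of the pyruvate dehydrogenase that Pdk1 inhibits, was lower by -0.65 ± 0.08 and -0.62 ± 0.08, and Pck2, of mitochondrial gluconeogenesis, by -1.25 ± 0.15 and -1.69 ± 0.15.

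Of 7 enzymes of the pentose phosphate pathway 2 passed in each comparison (28.6%), beside 33.7% of all genes in wild types and 36.1% in mutants. Rpia was higher in both comparisons (0.65 ± 0.09 and 0.76 ± 0.09), G6pdx was lower in wild types (-0.37 ± 0.12) and Pgls in mutants (-0.61 ± 0.16). Of 17 citric acid cycle enzymes 2 were higher in wild types, Suclg2 (0.63 ± 0.16) and Dlst (0.31 ± 0.08), and 3 in mutants, Sdhd, Idh3a and Fh1, with 0 lower, which is 11.8% and 17.6% of the list. Their medians were 0.09 and 0.06.

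Markers of other cells also differed between the lines. The summed level of 10 erythroid genes was 4.70 to 17.3 CPM in the CG and 1004 to 2706 CPM in the CT libraries, with Hba-a1 at 1.21 to 5.67 and 454 to 1169.9 CPM. The 10 endothelial genes summed to 25.2 to 55.0 and 80.3 to 144 CPM, 10 genes of proliferating cells to 102 to 141 and 185 to 215, and 12 genes of dissociation stress to 1408 to 1639 and 2289 to 3839.8. In wild types 7 of 10 erythroid, 5 of 10 endothelial, 5 of 10 proliferation and 7 of 12 stress genes were higher in the CT line, and 0, 0, 0 and 1 were lower. In mutants 9, 6, 9 and 6 were higher, and 0, 0, 0 and 3 were lower. The widest gap among the stress genes was that of Hspa1b, at 16.995 to 63.09 CPM in CG and 545.1 to 1044.9 in CT libraries, followed by Hspa1a. Junb (311 to 404 and 159 to 220 CPM) and Dusp1 (319.6 to 497.8 and 192.8 to 290.1) were lower in every CT library. Of the 10 neutrophil genes 7 were higher and 1 lower in wild types (median 2.47), with S100a8 at 0.582 to 4.03 CPM in CG and 10.7 to 28.0 in CT libraries. The one lower was Lcn2, which other cells also make, at 2163 to 4423 and 100.6 to 209 CPM. The summed neutrophil list was therefore higher in CG libraries (2181 to 4433 against 247 to 389.7 CPM), and without Lcn2 it was higher in CT libraries (10.2 to 24.2 against 65.2 to 215). Of 9 macrophage genes 4 were higher and 1 lower in wild types (median 0.93). Their sum was 330.4 to 561 CPM in CG and 309 to 364 in CT libraries, and without Cd14 it was 13.2 to 37.0 and 48.6 to 99.7. Of 10 fibroblast genes 2 were higher and 2 lower, and their sum was 2862 to 4022 and 3006 to 3915 CPM. Without Dcn that sum was 612 to 1451 in CG and 2449 to 3246 in CT libraries, with Col1a1 at 104 to 312 and 756 to 1249. The 3 genes left out were picked after their levels were seen. Muscle genes were at 7.52 to 32.1 and 7.02 to 8.30 CPM, and of the 7 tested 1 was higher and 3 lower in wild types. Chondrocyte genes were at 35177.5 to 60164 and 45760.3 to 67115. In wild types alone they were at 36343 to 37307 in CG and 55779 to 67115 in CT. Of the 14 chondrocyte genes 7 were higher and 0 lower in wild types (median 0.70), and 4 and 2 in mutants (median -0.05). No listed marker was at 0 in every library. The part of these differences in the members' result was not tested. Transcripts of the members had a median GC content of 52.0%, against 50% for all genes with a value, and with GC and length offsets 27 and 26 members were again higher and 0 lower.

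Within each line, mutants were set against their own wild types to ask what each alteration of Mir140 changed. In the CG line both mutants were male and 1 wild type was female. Sex and mutation therefore cannot be fully told apart there, nor in the mean or the difference of the lines. Of the 34 members 0 passed in the CG line, where 0.00696% of all genes (1 of 14359) passed edgeR's test, and 0 in the CT line, where the share was also 0.00696%. In the CG line 8 of the 34 members and 1633 of all genes had an unadjusted p under 0.05, and in the CT line 0 and 734. The median of the members was -0.05 in the CG and -0.08 in the CT line, against 0.00 and -0.00 over all genes. In the mean of the lines 0 of 34 members and 0% of all genes passed, with 4 members and 1646 of all genes under an unadjusted p of 0.05. DESeq2 called 2 members, both lower, in the CG line and in the mean, where it called 213 and 206 of all genes, and 0 members in the CT line, where it called 20. With 2 libraries a group, a p that misses the threshold does not show that a level was the same.

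**Figure D5:**
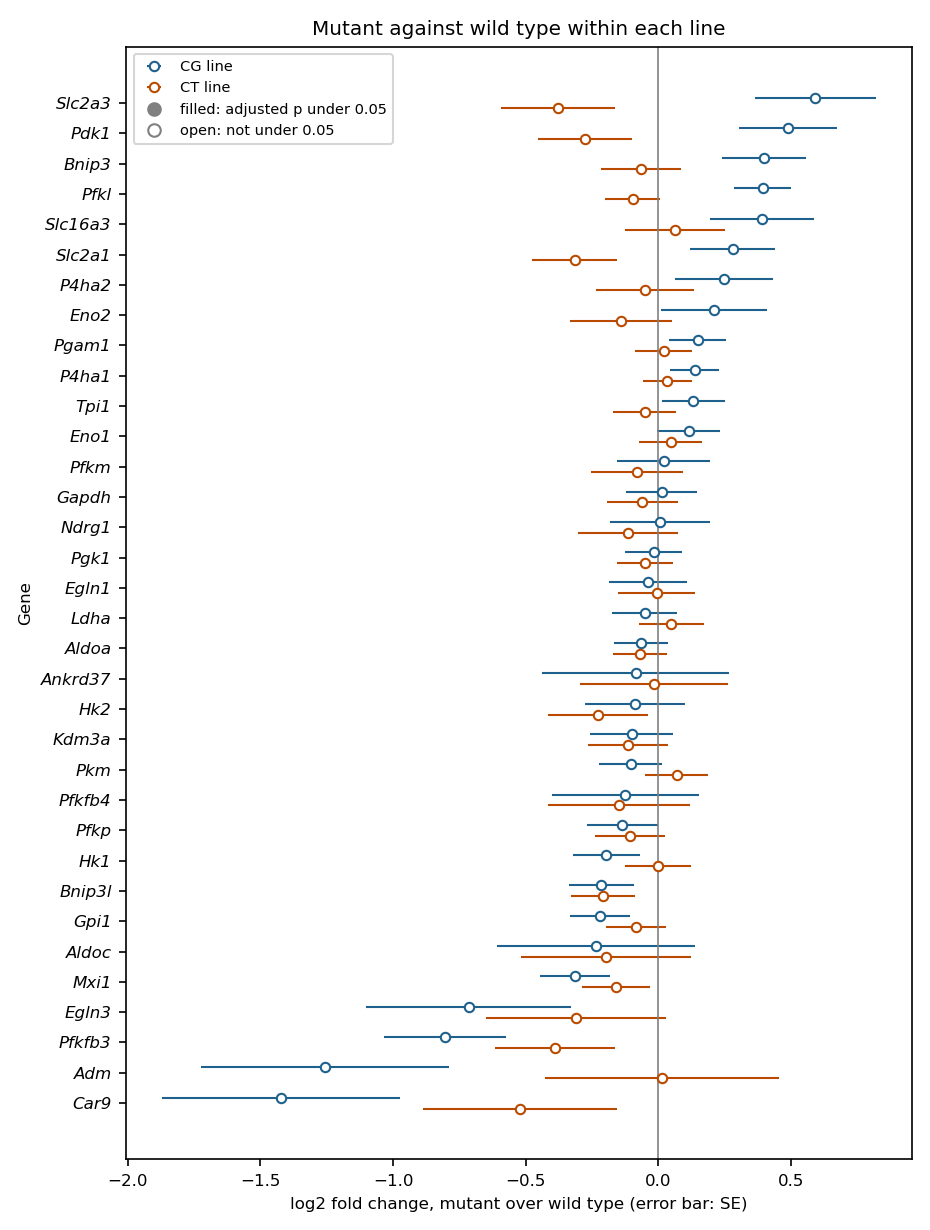
Log2 fold change of mutants over wild types for each of the 34 genes in the CG and the CT line, with its SE as error bar, ordered by the CG value. Every marker is open because no adjusted p is under 0.05, and Car9, Adm, Pfkfb3 and Egln3 lie lowest in the CG line, at -1.42, -1.26, -0.80 and -0.72.

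The smallest p-values in the CG line belonged to Pfkl, Pfkfb3 and Car9. Pfkl had both mutants above both wild types, with 0.39 ± 0.11 and an edgeR adjusted p of 0.275. Pfkfb3 had both mutants below both wild types, with -0.80 ± 0.23 (edgeR adjusted p 0.289), and DESeq2 gave an adjusted p of 0.018. The authors' deposited table has a q-value of 0.0213 for Pfkfb3, its 1 member under 0.05 in this comparison. Car9 was also below both wild types in both mutants, with -1.42 ± 0.45 (edgeR adjusted p 0.315, DESeq2 0.0178).

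Part of these values rests on CG mutant replicate 1. Car9 was at 0.623 CPM there and 2.48 in the other mutant, Egln3 at 1.54 and 4.31, and Adm at 4.86 and 11.4, and these 3 are the members more than 2-fold apart within the CG mutants. Without CG mutant replicate 2, so that replicate 1 stood alone for its group, Car9 was at -2.75 and Egln3 at -1.65. Without replicate 1 the values were closer to 0, at -0.77 for Car9, -0.78 for Adm and -0.17 for Egln3. With all libraries they were -1.42, -1.26 and -0.72. Between the mutants of the lines, leaving out replicate 1 moved Car9 from 3.21 to 2.55, Egln3 from 2.23 to 1.68 and Adm from 1.85 to 1.36, and the calls of Car9 and Egln3 held (edgeR adjusted p 0.000437 and 0.00194). Summed chondrocyte markers were 60164 CPM in CG mutant replicate 1 and 35177.5 in replicate 2. Lcn2 was highest in replicate 1, at 4423 CPM, while the other 9 neutrophil markers summed to 10.2 there and 24.2 in replicate 2, and the 8 macrophage markers other than Cd14 to 13.2 and 36.6. The part of these in the values was not tested.

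In the CT line the smallest p-values were those of Slc2a1 (-0.32 ± 0.16), Slc2a3 (-0.38 ± 0.21) and Bnip3l (-0.21 ± 0.12), each with an edgeR adjusted p of 0.958. Of the 34 members 27 had a value below 0, as had 7266 of the 14359 genes tested. With single libraries of the CT line left out, the members' median ran from -0.17 without CT wild type replicate 2 to -0.06 without CT wild type replicate 1. For 23 of the 34 that library had the higher level of the CT wild types, and its summed dissociation stress genes were at 3839.8 CPM against 2739 in replicate 2. On average Hspa1b and Hspa1a added most to that sum in CT wild types. The part of the stress genes in these values was not tested.

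Averaged over the lines, the smallest p-values were those of Pfkfb3 (-0.60 ± 0.16, edgeR adjusted p 0.275), Car9 (-0.97 ± 0.29, 0.308) and Mxi1 (-0.24 ± 0.09, 0.397). Lower levels in the mutants of both lines, with both mutant libraries below both wild types, were recorded for these 3 and for Bnip3l and Egln3, which is 14.7% of the members beside 5.06% of all genes tested, while 0 members and 5.90% of all genes had the mutants above in both lines. The difference between the effects of the lines, CG minus CT, passed for 0 members, where 0.0209% of all genes passed, and DESeq2 also called 0 members. For this difference 4 members and 687 of all genes had an unadjusted p under 0.05. Pfkl (0.49 ± 0.15), Slc2a3 (0.97 ± 0.31) and Pdk1 (0.77 ± 0.26) had the smallest p of the difference, each with an edgeR adjusted p of 0.922.

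Because the CG mutation lies in the 3p seed region, members were searched for matches to the seed of the unaltered 3p arm, bases 2 to 8, shown in capitals in the mature sequence (RefSeq, GRCm38.p6). The match, CTGTGGT, was sought in the longest 3′ UTR of each gene in GENCODE M21 on GRCm38. It occurs in 8 of the 34 members (23.5%) and in 2675 of 13881 tested genes with a 3′ UTR (19.3%). The sites printed with it are those of the member with the smallest p of the 8 in the CG line and of the lactate enzyme gene.
mmu-miR-140-3p: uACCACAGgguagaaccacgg
Pfkfb3 site: accctttatatCTGTGGTtcaccaggata
Ldha site: tctcgtctgagCTGTGGTtagtacagtgg
The CG log2 fold changes of the 8 were 0.49 (Pdk1), 0.15 (Pgam1), -0.05 (Ldha), -0.13 (Pfkfb4), -0.14 (Pfkp), -0.32 (Mxi1), -0.72 (Egln3) and -0.80 (Pfkfb3), on both sides of 0, and 0 of them passed. A match is a description of the letters and not a site shown to be used.

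Other genes of the pathways did not pass in the mutant comparisons either. In the CG line 0 passed of 18 genes of the HIF machinery, 39 hypoxia genes, 33 glycolysis and pyruvate genes, 7 pentose phosphate enzymes and 17 citric acid cycle enzymes. Their medians lay between -0.19 (pentose phosphate) and 0.05 (citric acid cycle). The smallest p-values were those of the glycogen branching enzyme gene Gbe1 (-0.83 ± 0.20, edgeR adjusted p 0.244), Pgd of the pentose phosphate pathway (-0.71 ± 0.19, 0.27) and the mitochondrial glycerol phosphate dehydrogenase gene Gpd2 (-0.46 ± 0.12, 0.27). In the CT line 0 passed as well, with medians between -0.10 (hypoxia genes) and 0.03 (HIF machinery).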

How the data were processed

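RNA of 8 libraries was sequenced on DNBSEQ, per the series design text. HISAT2 2.0.4 and mm9 are the tool and build that the submitters' processing notes list. The counter and the annotation remain not given in the sources used here. Per the file headers, the authors deposited a read count per gene and library, here an estimated count without normalization, and an FPKM value scaled by transcript length and depth. The authors also deposited log2 ratios and q-values of 4 comparisons for 2655 genes, by a tool that the sources used here do not name.

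Estimated counts were rounded and tested with edgeR 4.0.16 in R 4.3.3, with TMM scaling, edgeR's own low-count filter, 4 group means over 8 libraries and 4 residual degrees of freedom. P-values of the quasi-likelihood F test were adjusted by the Benjamini-Hochberg method over 14359 genes, with a threshold of 0.05. The SE of a log2 fold change is its size over the root of F. The alternatives were DESeq2 1.42.0, RLE and upper-quartile factors, no filter, limma 3.58.1 on log2 of the deposited FPKM plus 1 or 0.1, only the groups compared, a replicate block, leaving out each library and, chosen after seeing the data, GC and length offsets. Expected counts can divide reads between similar genes, and library totals of 26536868 to 28678641 limit the precision of scarce genes.

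The members and the gene lists were chosen with earlier results of these data known. Members were described by library where they were among the 12 smallest p-values of those passing a comparison or, where fewer than 3 passed, the 3 smallest, and Hk2, Slc2a1, Ldha, Pgk1, Pdk1, Bnip3, Egln3, P4ha1 and Car9 always. Of other pathway genes, the 3 with the smallest p per list could be named. Sequences come from RefSeq GRCm38.p6 and GENCODE M21 and gene coordinates of mm9 are not given. Labels share replicate numbers between groups without saying what a number marks.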

Additional observations from a re-analysis of the deposited data

How the results depend on the processing

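Between the wild types of the lines, 27 members were higher under DESeq2, RLE and upper-quartile factors, no filter, only the groups compared, the replicate block and GC and length offsets, and 28 under limma with either added value. In mutants the count was 25 to 27 under these settings. With single libraries left out it ran from 20 to 27 in wild types and from 22 to 26 in mutants, and 0 members were lower in any of these fits. Over all genes, calls ran from 2136 to 5316 in wild types (4843 with all libraries) and from 2935 to 5220 in mutants (5184) with single libraries left out. Under limma on FPKM the all-gene median was up to 0.13 in wild types and 0.20 in mutants, against 0.00 and -0.01 with edgeR.

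For the mutant effects, DESeq2 called 2 members in the CG line and 2 in the mean, Pfkfb3 and Car9, both lower; the cause was not tested. With single libraries left out, the members' median ran from -0.07 to 0.02 in the CG line. In the CT line it ran from -0.17 to -0.06, in the mean from -0.07 to -0.01 and in the difference from -0.01 to 0.13. Members were called by edgeR only without CG mutant replicate 2, where the calls over all genes rose as well.

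Some members that did not pass changed sign. Pkm in wild types was at -0.0073 with GC and length offsets, and Hk2 in mutants at 0.15 under limma on log2(FPKM + 1) and on log2(FPKM + 0.1). With single libraries left out, Hk2 in wild types ran from -0.24 to 0.36, Pkm from -0.12 to 0.14 and Ndrg1 from -0.39 to 0.10. In mutants Hk2 ran from -0.22 to 0.10, Pfkm from -0.0054 to 0.31, Slc2a1 from -0.11 to 0.20 and P4ha2 from -0.14 to 0.37.

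Deviations of libraries with the same replicate number correlated at 0.25 between CT wild types and CT mutants. Between the other pairs of groups the correlations ran from -0.089 to 0.019. In the CT line replicate 1 was the male library in both groups, and whether the numbers mark a pairing was not tested. With the replicate block the counts were 27 and 25 members, Slc2a3 in mutants being lost at an edgeR adjusted p of 0.0575. Leaving out a library from a group leaves 1, which is then assumed to vary like the other groups. Depth limits the scarcest members: Aldoc and Ankrd37 rest on 19 and 22 counts in CG wild type replicate 1. In CG mutant replicate 2 they rest on 16 and 14, and Car9 rests on 15 in CG mutant replicate 1.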
